A study of Drosophila melanogaster with 24 samples.

Results

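RNA of mixed-sex Drosophila melanogaster embryos was compared with RNA of adult male abdomens on a microarray. The samples were chosen by their titles: 4 of embryos and 4 of male abdomens, 8 of the 24 samples in the series, measured at all 22575 probes of the array. All flies were of the isogenic line WI89. The embryos carried both sexes and all the stages laid within 24 h of egg laying. The abdomens were dissected from males 24 to 48 h old. The other 16 samples were male heads from adults of the same age, female pupae, male pupae, and mixed-sex pupae made by pooling male and female pupal RNA, with 4 samples each, and the pupae had been aged for 12 h at 25 °C after pupariation. Per the design text, mRNA was labelled without amplification. Nothing says that the replicates of a group came from separate cultures or dissections, so the p-values cover the differences among these samples and no more, and part of that spread may be technical.

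An early fly embryo runs first on RNA loaded into the egg by the mother, and then on its own genes as its axes are patterned and its organs form. The abdomen of an adult male holds the testes, the accessory glands that make seminal fluid proteins, gut, fat body and body wall muscle. The testis is known as a tissue with many genes that are expressed in few other tissues. The tables used here pair no probe with a gene, so each probe is given by its number in spot order, no probe sequence is shown, and the labelled tissues were not checked against marker genes. In whole embryos and dissected abdomens, fewer cells of a type and less RNA per cell cannot be told apart.

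Each sample was read in a single dye, and each group held 2 Cy3 and 2 Cy5 samples. Identical patterns of marked spots placed the 24 samples on 12 arrays of 2 samples each. No array held both an embryo and an abdomen sample. Median signal above local background was 6.77 to 20.7 units in the Cy5 embryo samples and 121 to 144 units in the Cy3 embryo samples. The corresponding ranges in abdomens were 8.24 to 15.6 units in Cy5 and 76.6 to 78.1 units in Cy3. Both Cy3 embryo samples lay on bright arrays, and both Cy5 embryo samples and all 4 abdomen samples lay on dim ones, so within embryos dye and array brightness cannot be told apart. At least 86.3% of spots in every embryo sample and 89.1% in every abdomen sample exceeded the detection level, which was 2 SD of the spot backgrounds. Over the probes without a marked spot, embryo samples correlated with each other at r = 0.872 to 0.969, abdomen samples at 0.871 to 0.938, and embryo with abdomen samples at 0.600 to 0.725.

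The contrast between embryos and abdomens covered a large share of the array, with nearly equal numbers of probes on each side but larger changes on the abdomen side. Of 22575 probes, 5810 (25.7%) differed at a Benjamini-Hochberg adjusted p under 0.05 in the limma fit. Signal was higher in embryos at 2842 of them (12.6%) and higher in male abdomens at 2968 (13.1%). All changes are log2 differences, embryos minus abdomens, of quantile-normalised signal with an added offset of 50 units, which understates the change of dim probes. The median change was 0.49 among embryo-higher probes, -0.68 among abdomen-higher probes and 0.05 over all probes, and the median standard error was 0.10. The values of the 4 embryo and 4 abdomen samples did not overlap at 6356 of the 21714 probes without a marked spot (29.3%). That held for 2415 of 2769 such embryo-higher probes (87.2%) and for 2682 of 2869 such abdomen-higher probes (93.5%).

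The abdomen side grew with the size of the change. At 1 log2 unit or more, 363 probes (1.61%) were higher in embryos and 884 (3.92%) in abdomens, so abdomens held 70.9% of these calls. At 2 log2 units or more, there were 27 embryo-higher probes (0.12%) and 214 abdomen-higher probes (0.948%), and abdomens held 88.8% of the calls. At 3 log2 units or more, 2 probes (0.00886%) were higher in embryos and 59 (0.261%) in abdomens. Of the abdomen-higher probes, 22 passed 4 log2 units and 9 passed 5, whereas the largest embryo-higher change was 3.82. With an offset of 10 in place of 50, 959 embryo-higher and 1850 abdomen-higher probes passed 1 log2 unit, and with scaling to the 75th percentile the embryo-higher calls fell to 1809.

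**Figure D1:**
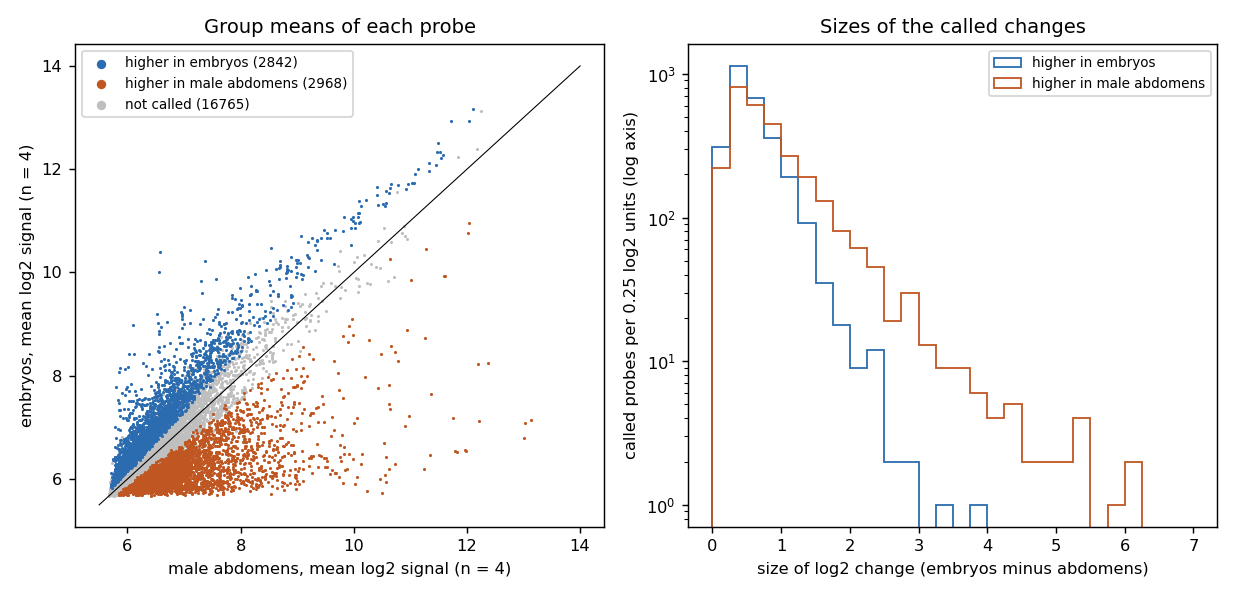
The left plot gives each probe's mean log2 signal in embryos (vertical) against that in male abdomens (horizontal), with called probes coloured by direction. The right plot counts called probes by the size of their change in steps of 0.25 log2 units on a log axis, where the abdomen-higher probes reach a change of -6.21 (probe 10230, which had a marked spot) and the embryo-higher probes end at a change of 3.82.

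Brighter probes were called more often. In 4 bins of equal size by mean signal over all 24 samples, dimmest first, the called share was 10.9%, 20.2%, 30.3% and 41.5%. The samples compared are among the 24, so the bins are not independent of the calls. Embryo-higher calls made up 4.55%, 8.36%, 13.8% and 23.7% of these bins, and abdomen-higher calls made up 6.36%, 11.9%, 16.6% and 17.8%. The embryo side was thus the smaller in the 3 dimmer bins and the larger in the brightest. Across the 4 corners of the slide surface, the embryo-higher share was 11.4% to 13.9% and the abdomen-higher share 12.6% to 13.5%.

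Among probes without a marked spot whose groups did not overlap, the 10 largest changes toward abdomens lay between -4.63 and -6.0 log2 units. Probe 17376 had log2 signals of 6.90, 7.04, 7.23 and 7.39 in the embryo samples, against 13.01, 13.15, 13.70 and 12.70 in the abdomen samples. Its change was -6.0 (SE 0.28, limma adjusted p = 5.03e-13), a 64.0-fold higher signal in abdomens. Every abdomen sample lay far above every embryo sample, and male pupae lay between the groups at 11.18 ± 0.05 (SD, n = 4). Female pupae stood lower, at 7.87 ± 0.53, and male heads at 7.74 ± 0.62.

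Probe 323 followed the same order, with 6.87, 6.88, 7.22 and 7.37 in embryos and 13.17, 12.53, 13.17 and 13.22 in abdomens, a change of -5.94 (SE 0.27, adjusted p = 4.07e-13). Male pupae averaged 11.19 ± 0.05 and female pupae 7.82 ± 0.56 at this probe. Probes 20466, 3468, 388, 15867 and 16251 changed by -5.44, -5.41, -5.30, -5.09 and -5.04. At each of these 7 probes, signal was also lower in female than in male pupae, with log2 changes between -2.64 and -3.55, and lower in male heads than in male pupae, with changes between -2.66 and -3.74, past the adjusted threshold in both limma contrasts. Neither contrast uses an embryo or abdomen sample, and the contrasts share the male pupa samples. Probe 16251, with the last of these changes, had 5.81, 6.20, 6.40 and 6.34 in embryo samples and 11.40, 11.46, 10.91 and 11.17 in abdomen samples.

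The remaining 3 of the 10, probes 14687, 3991 and 19640, were high in abdomens without a called difference between the pupal sexes. Probe 14687 had 6.37, 6.49, 6.72 and 6.29 in embryos, against 11.29, 11.67, 11.19 and 11.24 in abdomens, a change of -4.88 (SE 0.23, adjusted p = 6.33e-13). Its mean was 6.99 ± 0.31 in male heads, and 6.80 ± 0.17 and 6.75 ± 0.39 in female and male pupae (SD, n = 4 each). Its signal in abdomens thus stood alone among the 6 groups. Probe 19640 had 5.78, 5.84, 6.08 and 6.07 in embryos and 10.56, 10.46, 10.49 and 10.78 in abdomens, a change of -4.63 (SE 0.37, adjusted p = 1.52e-09).

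**Figure D2:**
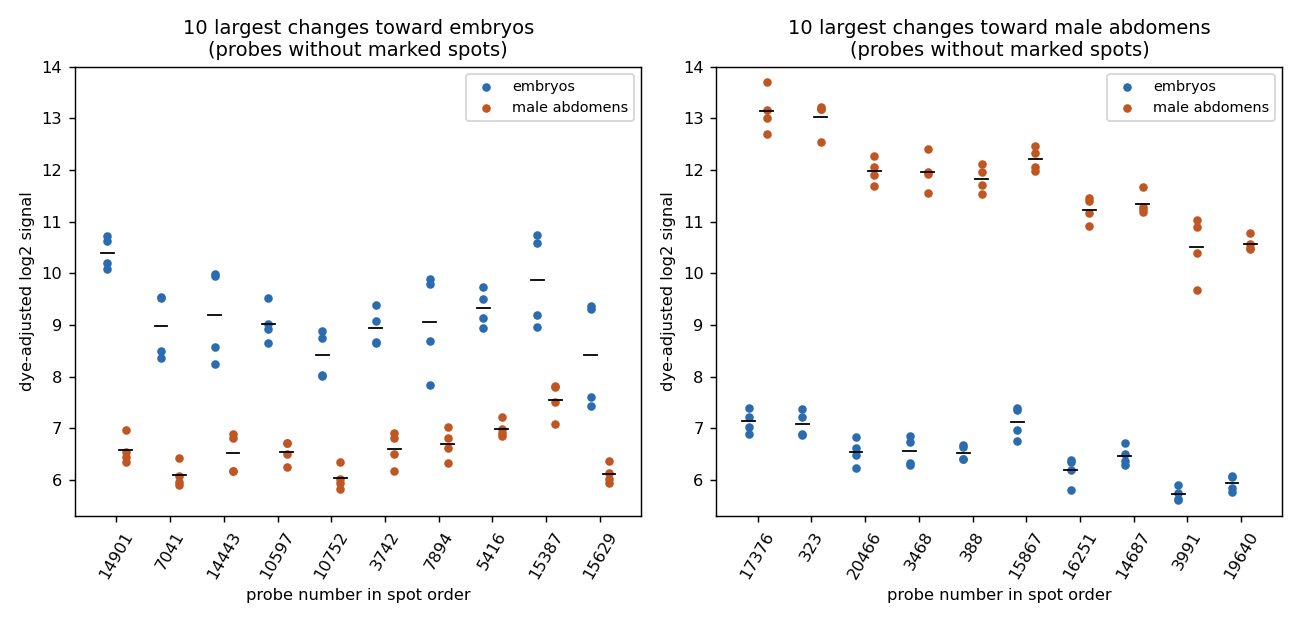
Dye-adjusted log2 signal of each embryo and male abdomen sample (points) and the group mean (bars, n = 4) at the 10 most changed probes of each direction without marked spots. The abdomen samples reach 13.70 at probe 17376, while the highest embryo sample, at probe 15387, is at 10.75.

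Under the same conditions, the 10 largest changes toward embryos were smaller, at 2.31 to 3.82 log2 units, with SDs of 0.31 to 1.05 between embryo samples. Probe 14901 had 10.19, 10.08, 10.62 and 10.71 in embryos, against 6.54, 6.97, 6.45 and 6.34 in abdomens. The log2 difference was 3.82 (SE 0.40, limma adjusted p = 1.06e-07), a 14.2-fold higher signal in embryos. The embryo samples all lay above every other sample, and the pupal groups averaged between 7.38 and 7.47.

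Probe 5416 had the smallest adjusted p of the 10, with 9.73, 9.51, 9.13 and 8.95 in embryos, against 6.99, 6.92, 7.22 and 6.85 in abdomens. Its change was 2.34 (SE 0.15, adjusted p = 6.97e-11), and the means of male heads, female, male and mixed-sex pupae all lay between 6.92 and 7.19. Signal at this probe was thus higher in embryos than in any other of the 6 groups.

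Probes 14443, 3742 and 15387 were about as high in pupae as in embryos. Probe 3742 had 9.38, 9.08, 8.65 and 8.68 in embryos and 6.80, 6.18, 6.51 and 6.91 in abdomens, a change of 2.35 (SE 0.24, adjusted p = 5.73e-08). Female pupae averaged 9.21 ± 0.14, male pupae 8.72 ± 0.37 and male heads 6.71 ± 0.50 at this probe. The adult parts thus stood lower than the embryos and pupae. In the contrast of male heads against male pupae, which uses no embryo or abdomen sample although some of its samples share arrays with them, probes 14443, 3742 and 15387 changed by -2.46, -2.0 and -1.74 (adjusted p = 2.8e-06, 9.5e-07 and 0.00058).

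At 5 of these embryo-higher probes, 14901, 14443, 7894, 15387 and 15629, the Cy3 embryo samples stood above the Cy5 embryo samples. Probe 15629 had 9.37 and 9.30 in the Cy3 embryo samples and 7.61 and 7.42 in the Cy5 embryo samples, against 5.94 to 6.37 in the abdomens. Its change was 3.36 between the Cy3 samples and 1.26 between the Cy5 samples. Probe 14443 changed by 3.79 in Cy3 and 1.55 in Cy5. At probes 7041, 3742, 5416 and 10752 the order was the opposite, and at probe 10597 the embryo samples of the dyes overlapped. Probe 7041 changed by 2.42 in Cy3 and 3.36 in Cy5. In embryos, dye and array brightness cannot be told apart at these probes either.

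Few probes showed a called gap between the dyes, but many more passed an unadjusted threshold. A limma fit of the 8 samples held a group-by-dye term. The change in Cy5 differed from that in Cy3 at 20 of 22565 probes (0.0886% called), 17 with the larger value in Cy3 and 3 in Cy5. At an unadjusted p under 0.05 there were 2942 (13%), above the share of 0.05 that chance would give. With 8 samples, a missing call does not show that the change was alike in both dyes. Among called probes, 2837 of 2840 embryo-higher probes (99.9%) and 2963 of 2968 abdomen-higher probes (99.8%) kept their direction in each dye taken alone. The calls rest on these same samples of both dyes, so the choice of probes largely set these shares. The median change was 0.42 in Cy3 and 0.55 in Cy5 for embryo-higher probes, and -0.68 in Cy3 and -0.69 in Cy5 for abdomen-higher probes.

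The groups outside the contrast separated the called lists. Over the 884 probes higher in abdomens by at least 1 log2 unit, the median log2 signal was 6.17 ± 0.03 in embryos and 7.81 ± 0.07 in abdomens (mean ± SD of the sample medians, n = 4), which the choice of probes fixed. It was 6.90 ± 0.15 in male pupae, 6.72 ± 0.14 in mixed-sex pupae, 6.35 ± 0.13 in male heads and 6.24 ± 0.10 in female pupae. Over all 22575 probes the same medians lay between 6.20 and 6.21 in every group. The 4 male pupa samples, at 6.78 to 7.11, all stood above the 4 female pupa samples, at 6.15 to 6.36. Mixed-sex pupae overlapped male pupae, and male heads overlapped female pupae.

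Over the 363 probes higher in embryos by at least 1 log2 unit, the median was 8.46 ± 0.06 in embryos and 7.03 ± 0.03 in abdomens. Female pupae stood at 7.75 ± 0.08, mixed-sex pupae at 7.61 ± 0.11, male pupae at 7.52 ± 0.09 and male heads at 7.14 ± 0.13. All 3 pupal groups lay between the groups compared, and the heads lay close to the abdomens. Samples of neighbouring pupal groups overlapped, at 7.63 to 7.82 in female, 7.51 to 7.74 in mixed-sex and 7.39 to 7.60 in male pupae.

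Most called probes were at their highest in the group that defined them, as the choice favours. Embryos had the highest mean of the 6 groups at 79.3% of embryo-higher probes, against 22.8% of all probes. Abdomens had the highest mean at 80.9% of abdomen-higher probes, against 17.1% of all probes. Where abdomens did not, male heads most often did, at 381 of the 2968 probes (12.8%). Where embryos did not, female pupae most often did, at 285 of the 2842 (10%).

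Each probe was also sorted by which of male heads, female pupae and male pupae had a mean above the midpoint between embryos and abdomens. Of the 884 abdomen-higher probes, male pupae alone passed the midpoint at 388 (43.9%), no group did at 286 (32.4%) and male heads alone did at 136 (15.4%). Of the 363 embryo-higher probes, no group passed at 217 (59.8%), both female and male pupae did at 65 (17.9%) and female pupae alone did at 43 (11.8%). With all samples, signal at the 884 probes was most often shared with male pupae alone, and signal at the 363 probes with no other group. Without the array partners of abdomens, the order at the 884 probes turned round. At the 214 abdomen-higher probes of at least 2 log2 units it did not, with male pupae alone at 110 (51.4%) and no group at 63 (29.4%).

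Samples that lay on the same array as an abdomen sample read higher at abdomen-higher probes than the rest of their own group. Over the 214 probes higher in abdomens by at least 2 log2 units, the median was 6.72 and 6.74 in the 2 male head samples on such arrays, against 6.24 and 6.28 in the other 2. It was 7.75 in the male pupa sample on such an array, against 7.35 to 7.52 in the other 3. That sample was also the only male pupa sample on a dim array, so array partner and array brightness cannot be told apart there. It read above the other 3 at 60.8% of the 212 of these probes with all values, against 35.1% of all probes. The mixed-sex pupa sample on such an array read 7.60, against 7.03 to 7.38 in the others. The same held on the embryo side over the 27 probes higher by at least 2 log2 units, where each sample beside an embryo sample exceeded all others of its group. Over the 363 embryo-higher probes of at least 1 log2 unit, that was so in male heads and in none of the 3 pupal groups. On the list of 27, these samples read 7.09 against 6.69 to 7.05 in male heads, 7.75 against 7.07 to 7.60 in female pupae, 7.75 against 6.95 to 7.61 in male pupae and 7.96 against 7.13 to 7.67 in mixed-sex pupae. What raised these readings was not tested. The embryo and abdomen samples shared no array with each other, but each lay beside a sample of another group. Whether those partners also moved the embryo and abdomen readings was not tested. Without the array partners of abdomens, male pupae alone passed the midpoint at 319 of the 884 abdomen-higher probes (36.1%) and no group did at 358 (40.5%). Without those of embryos, no group passed at 225 of the 363 embryo-higher probes (62%).

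**Figure D3:**
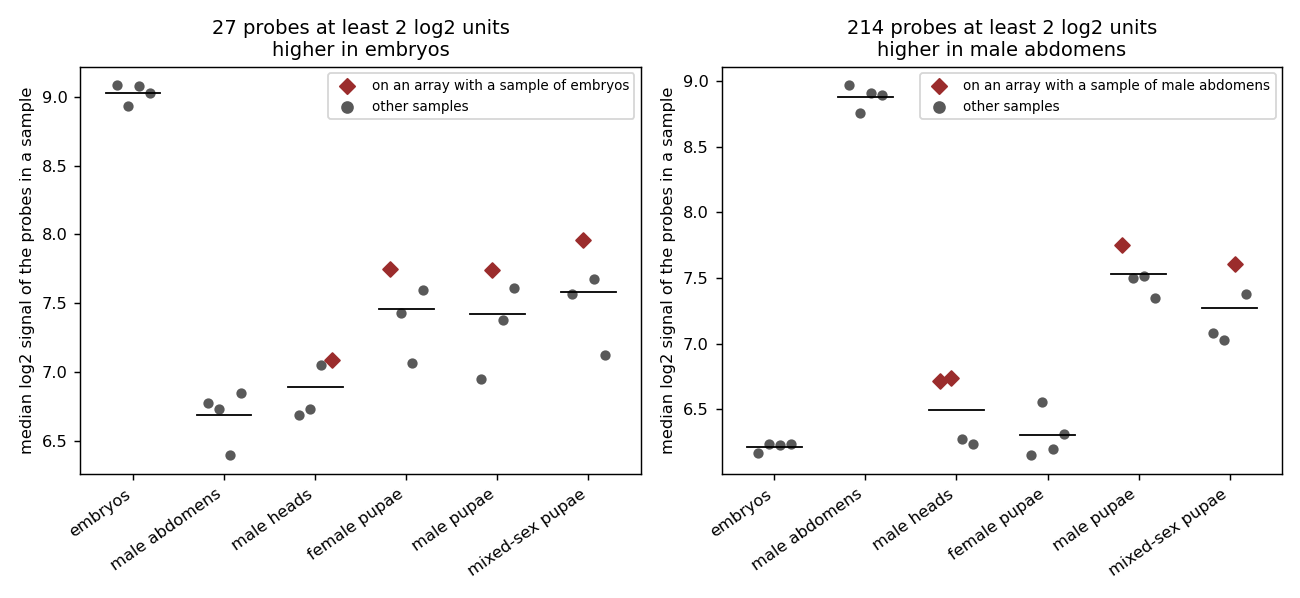
Median dye-adjusted log2 signal in each sample (points) and the mean of each group (bars, n = 4) over the 27 probes at least 2 log2 units higher in embryos (left) and the 214 at least 2 log2 units higher in male abdomens (right). Diamonds mark samples of other groups that shared an array with an embryo sample (left) or an abdomen sample (right), and each lies above the other samples of its group.

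The contrast of female against male pupae, which uses no embryo or abdomen sample, met the abdomen side far more than the embryo side. Of 4 samples each, 3 female pupa samples lay on dim arrays and 3 male pupa samples on bright ones. Sex and array brightness thus partly coincided. In pupae, 997 probes (4.42%) were higher in males and 148 (0.656%) in females. Of the 2968 abdomen-higher probes, 931 were higher in male pupae, which is 31.4% of the abdomen-higher list and 93.4% of the male-higher list. Of the 2842 embryo-higher probes, 6 were higher in male pupae (0.211% of the list, 0.602% of the male-higher list). The median change between embryos and abdomens over the 997 male-higher probes was -1.02. The overlap of 931 fell to 484 with scaling to the 75th percentile (20.2% of the abdomen-higher list, against 2.23% of all probes). It was 468 without the array partners (16%, against 2.25%) and 183 in Cy5 samples alone (9.09%, against 1.01%). With a term for array brightness it was 1001 (33.2%, against 4.85%).

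Female-higher probes fell on both sides. Of the 148, 19 were embryo-higher (12.8%, against 12.6% of all probes) and 29 were abdomen-higher (19.6%, against 13.1%). They made up 0.669% of the embryo-higher and 0.977% of the abdomen-higher list, against 0.656% of all probes. The shares on the embryo side were thus near those of all probes. The median change between embryos and abdomens over the 148 probes was 0.01.

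The share of male-higher probes grew with the size of the abdomen-higher change up to 3 log2 units. It was 9.15% below 0.5 log2 units, 30.8% from 0.5 to 1, 56.7% from 1 to 2, 62.6% from 2 to 3 and 57.6% in the 59 probes of 3 or more. Among embryo-higher probes it stayed between 0.139% and 0.298% up to 2 log2 units.

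Male heads against male pupae, the other contrast that shares no sample with embryos or abdomens, split both lists. All 4 male head samples lay on dim arrays and 3 of the 4 male pupa samples on bright ones. Group and array brightness thus largely coincided in this contrast. In it, 2248 probes (9.96%) were higher in heads and 2210 (9.79%) in male pupae. Abdomen-higher probes were higher in male pupae at 1117 (37.6% of the list, 50.5% of the male-pupa-higher list) and higher in heads at 568 (19.1% of the list, 25.3% of the head-higher list). Embryo-higher probes were higher in male pupae at 406 (14.3% of the list, 18.4% of the male-pupa-higher list) and in heads at 206 (7.25% of the list, 9.16% of the head-higher list). Among embryo-higher probes the male-pupa-higher share was 8.24% below 0.5 log2 units and 34.2% between 1 and 2. The 406 became 880 with a term for array brightness (24.9% of the list, against 12.2% of all probes), 621 with the array as a random block (18%, against 11.5%) and 70 in Cy5 alone (4.58%, against 3.69%). In a fit of the 11288 brighter probes alone, the count was 424 (18.4% of the list, against 16.1% of those probes). Scaling to the 75th percentile shifted the whole head contrast, whose median over all probes became 0.26 log2 units (heads minus male pupae), and 43.2% of all probes were then head-higher, against 21.6% of the abdomen-higher and 14% of the embryo-higher list.

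Taking both contrasts at once, the 884 abdomen-higher probes of at least 1 log2 unit fell mainly into 3 sets. A set of 492 (55.7%) was higher in male than in female pupae and higher in male pupae than in heads, against 4.03% of all probes. A set of 180 (20.4%) was higher in heads than in male pupae with no call between the sexes, against 9.87% of all probes. At 147 (16.6%) neither contrast made a call, against 79.6% of all probes. The contrasts share the male pupa samples, so their calls are not independent of each other.

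When the fit kept the 8 embryo and abdomen samples but dropped the 8 samples that shared an array with them, 508 probes were male-higher in pupae. Of these, 468 were abdomen-higher, which is 92.1% of the male-higher list and 16% of the abdomen-higher list. In the head contrast, 698 of all probes (3.09%) were then higher in male pupae and 1222 (5.41%) higher in heads. Abdomen-higher probes were higher in male pupae at 453 (15.5%) and in heads at 357 (12.2%). Embryo-higher probes were higher in male pupae at 83 (3.17%) and in heads at 94 (3.59%), so their male-pupa-higher share was near that of all probes. That fit held 3 female pupa samples, 2 male pupa samples and 1 head sample, and the lone head sample was taken to vary like the other groups.

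**Figure D4:**
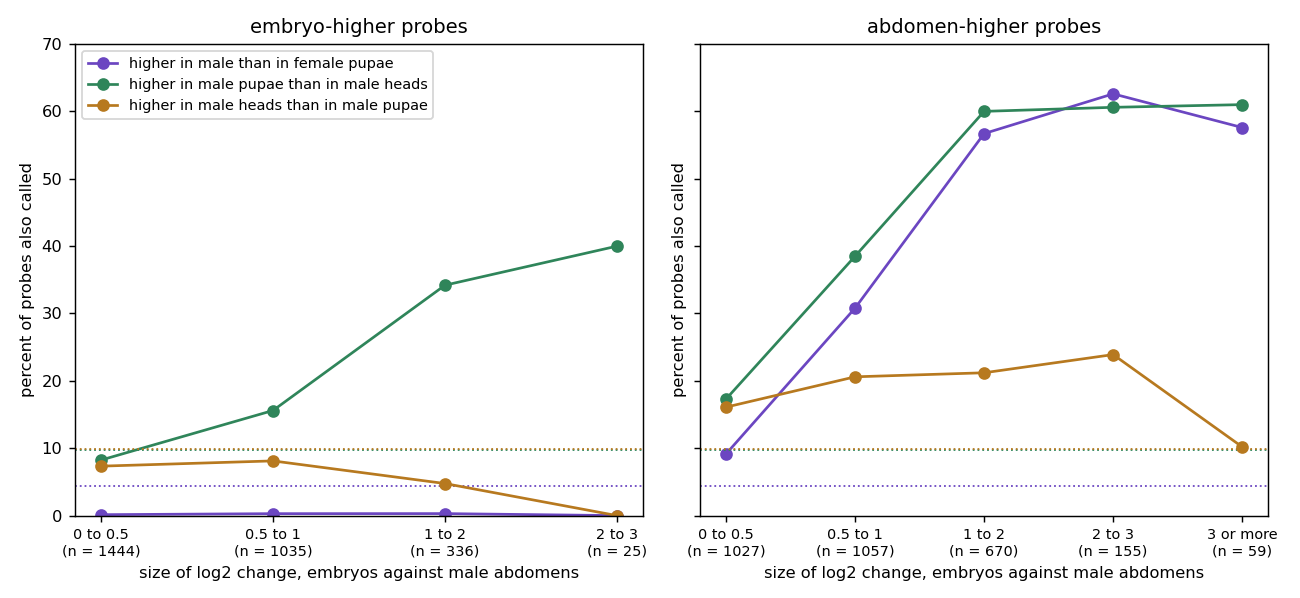
Percent of embryo-higher (left) and abdomen-higher (right) probes that were also called in 2 contrasts sharing no sample with embryos or abdomens, by the size of the log2 change between embryos and abdomens, with the number of probes under each point. Dotted lines give the percent over all 22575 probes (4.42% for male above female pupae, 9.79% and 9.96% for the 2 directions of heads against male pupae), and the last embryo-higher step of 2 probes is not drawn.

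A few probes went against the main pattern of the sexes. Among abdomen-higher probes that were higher in female than in male pupae, the largest changes were at probes 12973, 8817 and 16215, at -1.74, -1.58 and -1.45. Probe 12973 had 6.02, 6.20, 6.0 and 6.0 in embryos and 7.77, 8.03, 7.87 and 7.49 in abdomens. Its level in male heads, 7.91 ± 0.21, was close to that in abdomens, while female pupae averaged 6.53 ± 0.14 and male pupae 6.06 ± 0.06. Probes 8817 and 16215 were high in pupae of both sexes, with 8.52 ± 0.30 and 8.51 ± 0.32 in females against 7.86 ± 0.22 and 7.89 ± 0.17 in males.

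Among embryo-higher probes whose signal in female pupae was below that in male pupae, probes 4578, 21650 and 7239 had the largest changes, at 0.86, 0.81 and 0.52. Probe 4578 had 7.29, 6.83, 7.81 and 8.07 in embryos and 6.73, 6.60, 6.66 and 6.59 in abdomens, a change of 0.86 (SE 0.26, limma adjusted p = 0.0163). The lowest embryo sample lay just above the highest abdomen sample. Male pupae averaged 7.73 ± 0.70 at this probe, and the highest of them, at 8.48, was the sample on an array with an embryo sample, with the others at 6.80 to 7.86. Female pupae averaged 6.63 ± 0.10. These 3 probes were the only named ones that lost their call under any processing alternative tried.

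Male heads reached or exceeded abdomens at some abdomen-higher probes. Probe 9284 had 5.96, 7.21, 5.88 and 5.84 in embryos and 9.14, 8.84, 9.09 and 9.07 in abdomens, a change of -2.82 (SE 0.28, limma adjusted p = 4.96e-08). Male heads averaged 9.76 ± 0.18, with every head sample above every abdomen sample, while female pupae averaged 6.24 ± 0.41 and male pupae 6.12 ± 0.38, so both adult parts were high and the other groups low. The embryo sample at 7.21 shared its array with a male head sample, and the other 3 embryo samples lay close together.

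At probes 6356 and 15648, embryos lay below every other group. Probe 15648 had 7.12, 7.06, 6.86 and 6.73 in embryos and 9.67, 9.55, 9.83 and 9.54 in abdomens, a change of -2.70 (SE 0.13, adjusted p = 7.69e-13). The other 4 groups averaged between 9.21 and 9.61 at this probe. Probe 6356 had 6.69, 6.68, 6.28 and 6.23 in embryos and 9.39, 8.94, 9.48 and 9.76 in abdomens, and the other 4 groups averaged between 8.55 and 9.11.

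Male heads also stood near embryos at some embryo-higher probes. Probe 12314 had 8.63, 8.29, 7.94 and 8.22 in embryos and 6.92, 6.89, 6.66 and 6.94 in abdomens, a change of 1.42 (SE 0.15, limma adjusted p = 1.56e-07). Male heads averaged 7.97 ± 0.25, female pupae 7.43 ± 0.12 and male pupae 7.27 ± 0.09. Probes 17676 and 9184 changed by 1.42 and 1.30, and at all 3 probes heads were higher than male pupae, by 0.70, 0.64 and 0.42 log2 units.

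The clearest probes of a single group were chosen as those whose means in heads and in all pupal groups stayed within 0.5 log2 units of the lower side or below it. Probe 3991 had 5.90, 5.75, 5.63 and 5.61 in embryos and 10.89, 9.69, 11.02 and 10.40 in abdomens, a change of -4.78 (SE 0.24, limma adjusted p = 1.37e-12). The embryo values lay near 5.64, the log2 of the offset itself, and 3 of the 4 embryo samples exceeded the detection level. At this probe the head samples read 6.35 and 6.10 on arrays shared with abdomens and 5.76 and 5.62 on the others.

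Probe 18984 had 5.94, 6.08, 6.12 and 6.16 in embryos and 10.63, 10.35, 10.48 and 10.78 in abdomens, a change of -4.48 (SE 0.26, adjusted p = 1.33e-11). Probe 21030 had 5.74, 6.02, 5.66 and 5.66 in embryos and 10.48, 9.69, 10.55 and 10.24 in abdomens, also a change of -4.48 (SE 0.18, adjusted p = 6.97e-14). At probes 3991, 18984 and 21030, every head or pupa sample on an array with an abdomen sample read above all other samples of its group.

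On the embryo side, probe 7041 had 9.53, 9.54, 8.37 and 8.49 in embryos and 5.95, 5.91, 6.07 and 6.43 in abdomens, a log2 difference of 2.89 (SE 0.28, limma adjusted p = 2.53e-08). Probe 10597 had 8.92, 9.52, 8.64 and 9.03 in embryos and 6.72, 6.49, 6.71 and 6.26 in abdomens, a change of 2.48 (SE 0.21, adjusted p = 5.41e-09). Probe 10752 had 8.88, 8.75, 8.03 and 8.01 in embryos and 5.83, 6.34, 5.94 and 6.02 in abdomens, a change of 2.38 (SE 0.27, adjusted p = 3.77e-07). At each of the 3 probes, every embryo sample read above every sample of the other 5 groups. Other contrasts that use the embryo samples gave these probes 2.66, 2.04 and 2.12 for embryos minus male heads, and 2.86, 2.21 and 2.21 for embryos minus mixed-sex pupae.

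**Figure D5:**
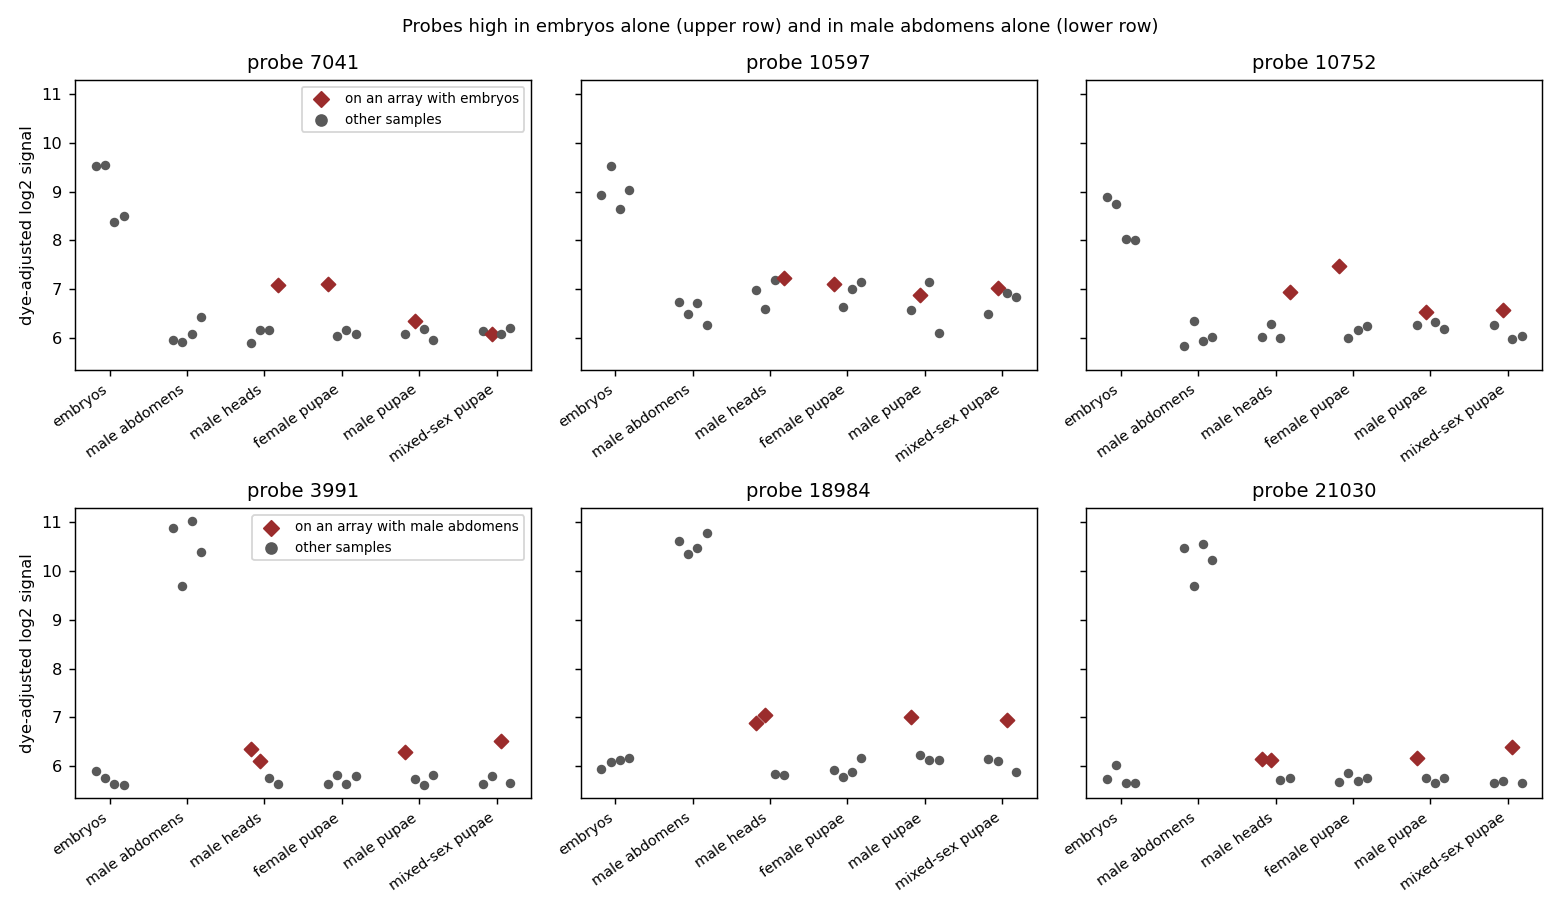
Dye-adjusted log2 signal in all 24 samples (points) at 3 probes high in embryos (upper row) and 3 high in male abdomens (lower row). Diamonds mark samples of other groups on an array with an embryo sample (upper) or with an abdomen sample (lower). At probe 18984 the diamonds read 6.89 to 7.05, against 5.78 to 6.23 in the other head and pupa samples.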

How the data were processed

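Expression was measured in 24 samples, 4 in each of 6 groups taken from the sample titles. The deposited scanner tables give mean and median signal intensity and local background intensity per spot, neither corrected nor normalised, and a quality mark of unstated meaning, per the file headers. The authors also deposited natural log values, which matched ln of the mean signal less the mean background within 1e-07 and served as an alternative. The scanner software is not given in the sources used here.

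In R 4.3.3 with limma 3.58.1, mean signal was corrected for median background by normexp with an offset of 50, marked spots (861 probes in the 8 samples) were left out, and log2 values were quantile normalised. The linear model held 6 group means and a dye term over all 24 samples (17 residual degrees of freedom), with moderated variances, an intensity trend and Benjamini-Hochberg adjustment over 22575 probes at 0.05. It treated the 2 samples of an array as independent. With the array as a random block, the estimated correlation within arrays was 0.49 and 6622 probes were called. With the array as a fixed block, 5213 were called. Control spots were not told apart and were kept. Printed levels are dye-adjusted, and the number of arrays limits precision. Arrays were paired by identical marked spots and divided into bright and dim ones where their signals had the widest gap.

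Comparisons, lists and rules were chosen with earlier results of these data known. Named probes were the 10 largest called changes per direction without marked spots or overlap between groups, and the first 3 per direction with the opposite call between pupal sexes, with heads within 0.5 log2 units of the higher group or above it, or with all other groups within 0.5 of the lower group or below it. The planned gene lists and marker checks were not run, because the reference table of 17872 genes could not be joined to the probes. The fit was also tested on simulated data drawn with the probe means and spread of these data. Alternatives in background, offset, scaling, filters, threshold, samples, dye and array terms, replicate block and omitted replicates were tried, 3 of them (each dye alone, and without array partners) added after the data were seen. Same-numbered embryo and abdomen samples deviated together with r between -0.10 and 0.41, so the numbers were not taken as pairs.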

Additional observations from a re-analysis of the deposited data

Results flagged for a closer look

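Of 80 checks of single samples within a group of 4, at the named probes and over the called lists, 5 found a sample whose gap to the others passed Dixon's limit, against about 5% by chance. At probe 323, male abdomen replicate 2 read 12.53, below the others at 13.17 to 13.22. At probe 12973, embryo replicate 2 read 6.20, above the others at 6.0 to 6.02. At probe 8817, male abdomen replicate 3 read 7.82, below the others at 8.14 to 8.15. At probe 16215, male abdomen replicate 4 read 8.04, above the others at 7.76 to 7.80. At probe 9284, embryo replicate 2 read 7.21, above the others at 5.84 to 5.96. Embryo replicate 2 was a Cy5 sample on an array with a male head sample, and the mean of male heads at this probe was 9.76.

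At 2 named probes the change between embryos and abdomens differed between dyes in a limma fit with a group-by-dye term. The change in Cy5 minus that in Cy3 was -2.25 at probe 14443 and -2.10 at probe 15629, so embryos stood further above abdomens in Cy3 at both. The Cy3 embryo samples also lay on the bright arrays, and the part of each in this gap was not tested.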

How the results depend on the processing

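Over 27 alternatives, 255 of 291 counts of the main results stayed within 1.5 times their value, 36 moved further, and no probe called in one direction was called in the other. Of the called probes, 25 changed sign without a call under scaling to the 75th percentile, 8 in Cy3 alone and 3 with a fixed block for the array. The 34 named probes kept their call in 909 of 918 values, and the 9 lost ones were at probes 4578, 21650 and 7239. Leaving out each embryo or abdomen sample in turn gave 4974 to 5504 called probes (2297 to 2724 embryo-higher, 2677 to 2887 abdomen-higher), and 356 to 411 embryo-higher and 849 to 916 abdomen-higher probes of at least 1 log2 unit. Of abdomen-higher probes, 898 to 929 were then male-higher in pupae, 1069 to 1133 higher in male pupae than heads and 497 to 552 higher in heads; of embryo-higher probes, 4 to 7, 333 to 404 and 149 to 202. The replicate block gave 5648 calls (2717 embryo-higher, 2931 abdomen-higher); the numbers do not pair the samples, and 2 of 4 embryo samples correlated best with their own number. Scaling to the 75th percentile gave 1809 embryo-higher calls, with 484 abdomen-higher probes male-higher in pupae and 649 higher in male pupae than heads. At 1 log2 unit, plain subtraction gave 841 embryo-higher and 1735 abdomen-higher probes, an offset of 10 gave 959 and 1850, and the deposited natural log values gave 875 and 1777; these settings spread dim probes and moved the median change of all probes to 0.11, 0.12 and 0.12. At an adjusted p under 0.01, 1697 probes were embryo-higher, of which 1 was male-higher in pupae, 86 higher in heads and 196 higher in male pupae than heads. Embryo-higher probes higher in male pupae than heads numbered 621 with the array as a random block and 880 with a term for array brightness. With dim arrays alone, embryo-higher probes included 1 male-higher, 95 head-higher and 249 male-pupa-higher, and abdomen-higher probes 274 head-higher. Cy3 samples alone gave 1828 embryo-higher calls, of which 1 was male-higher and 201 male-pupa-higher. Cy5 samples alone gave 3542 calls in all, 1528 of them embryo-higher, of which 0 were male-higher in limma (6 with all samples), 33 head-higher and 70 male-pupa-higher, and abdomen-higher probes included 183 male-higher, 239 head-higher and 407 male-pupa-higher. Without the array partners, abdomen-higher probes included 468 male-higher, 357 head-higher and 453 male-pupa-higher, and embryo-higher probes 3, 94 and 83. The causes were not tested. The fit on the 8 samples alone gave 6122 calls and no value for the pupal and head contrasts. Low signal over background in the Cy5 samples limits what can be read at dim probes.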
